A study of Mus musculus with 12 samples.

Results

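The wild-type hypothalamus of the Wfs1tm1Koks mouse line was described from 4 libraries, all of the wild-type libraries among 12 in the study. They were chosen by genotype and not by a measured value, though with earlier results of these data known. They carry the replicate numbers 1, 2, 3 and 5. The 8 remaining libraries came from the hypothalamus of mice with a mutated Wfs1 gene, 4 libraries heterozygous and 4 homozygous. Wfs1 encodes the endoplasmic reticulum membrane protein wolframin. The sequencing input was 50 ng of DNase-treated total RNA per library, amplified as cDNA by the NuGEN kit Ovation RNA-Seq System V2 and read on a SOLiD 5500xl sequencer. No treatment is named for any group, and the protocol speaks of 5 hypothalamus animals per genotype where 4 libraries were analysed here. The sources used here do not give age, sex or whether a library held 1 animal, so p-values and SDs measure the spread between these libraries.

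The hypothalamus is a small region at the base of the brain that controls feeding, drinking, temperature, sleep, stress, growth and reproduction. Its neurons work in large part through neuropeptides, which are cut from longer precursor proteins, packed into dense core vesicles and sensed by G protein-coupled receptors. Some of these neurons send their products to the pituitary or into the blood, and the rest signal within the brain beside the fast transmitters GABA and glutamate.

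Depth was 1312886 counts in replicate 1, 1030045 in replicate 2, 1282608 in replicate 3 and 1538688 in replicate 5, and values of 4 libraries below follow this order. The library depth is low, and 3 counts in a library correspond to 1.84 to 2.82 counts in 1000000 (CPM). Counting error alone is therefore wide for genes near 1 CPM. Levels below are CPM scaled with TMM factors unless a library's own CPM is named. Wfs1 (chromosome 5, 36966104 to 36989205, minus strand, mm10) had 113, 136, 161 and 165 CPM. It lay between 80.8 and 102 CPM in the heterozygous and between 14.7 and 19.9 CPM in the homozygous libraries, so that the 3 genotypes did not overlap. The Y-linked genes Ddx3y, Kdm5d, Uty and Eif2s3y were detected in all 4 wild-type libraries (Ddx3y at 122, 88.4, 72.7 and 85.3 CPM). Xist, the noncoding RNA of the inactive X chromosome, stayed at 0 to 3.63 CPM.

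Counts were spread over many genes. Of 24020 genes in the table, 12292 reached 1 CPM within the library in all 4 libraries (2 counts or more in each), and these are called detected below. No wild-type count was found for 7317 genes. The 100 most abundant genes took 17.6 ± 0.415% of the counts (SD, n = 4), between 909 and 978 genes took 50% of them, and between 5352 and 5627 genes took 90%. Protein-coding genes held 96.7 ± 0.220% of the counts and long intergenic noncoding RNAs 1.63 ± 0.278%. The levels of genes with a mean of 50 counts or more correlated between any pair of the 4 libraries with a Spearman coefficient of 0.936 to 0.957 across genes, which are not independent replicates.

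Mitochondrially encoded genes are not in the table under their usual symbols, so the ranks below leave them out. Malat1, a long noncoding RNA of nuclear speckles, was the most abundant gene of the table in all 4 libraries. It stood at 9088, 10011, 9616 and 13656 CPM (chromosome 19, 5795690 to 5802672, minus strand), and its share of a library's counts was 0.955% to 1.45%. Replicate 5 was the highest, and the other 3 libraries lay close together. Mtap1b (now Map1b), a microtubule-associated protein of axons, followed with 7000, 7157, 6293 and 7207 CPM, with replicate 3 the lowest. Counts per gene grow with transcript length as well as with the number of transcripts, so ranks by CPM are ranks of sequenced material.

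The 30 genes with the highest CPM, provisional gene models left out, held 9.19 ± 0.428% of the counts. A first group serves the cytoskeleton and axonal transport: Mtap1b, Mtap1a, the kinesin motors Kif1a (2534 CPM), Kif1b (2164 CPM) and Kif5a (1953 CPM), and the spectrin Spnb2 (1734 CPM). The synaptic vesicle protein Syp stood at 2945, 3491, 2888 and 2598 CPM. Snap25, a SNARE protein of vesicle fusion, stood at 3065, 2961, 2326 and 3007 CPM, with replicate 3 below the other 3. Atp1b1, a sodium pump subunit, had a mean of 2497 ± 236 CPM, and the 14-3-3 adaptor gene Ywhae had one of 3412 ± 495 CPM.

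Glial genes were also among these 30. Slc1a2, the main glutamate transporter of astrocytes, stood at 3456, 3555, 2519 and 2593 CPM, so replicates 1 and 2 were above replicates 3 and 5. Sparcl1, a secreted matrix protein of astrocytes, had a mean of 2568 ± 328 CPM, and Ndrg2, another astrocyte gene, 2980 ± 329 CPM. Imprinted genes, with some or all transcripts made from 1 parental copy, held 3 of the 30 places: Peg3 (3154 ± 245 CPM), the noncoding RNA Meg3 (3092 ± 605 CPM) and Gnas (1672 ± 207 CPM). These levels cover all transcripts of a gene, and the parental copy was not measured. Scg2, a granin of dense core vesicles, was the 26th gene by CPM, at 1630, 2041, 1833 and 1787 CPM. In none of the 30 genes did the highest library exceed the lowest by over 2-fold.

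**Figure D1:**
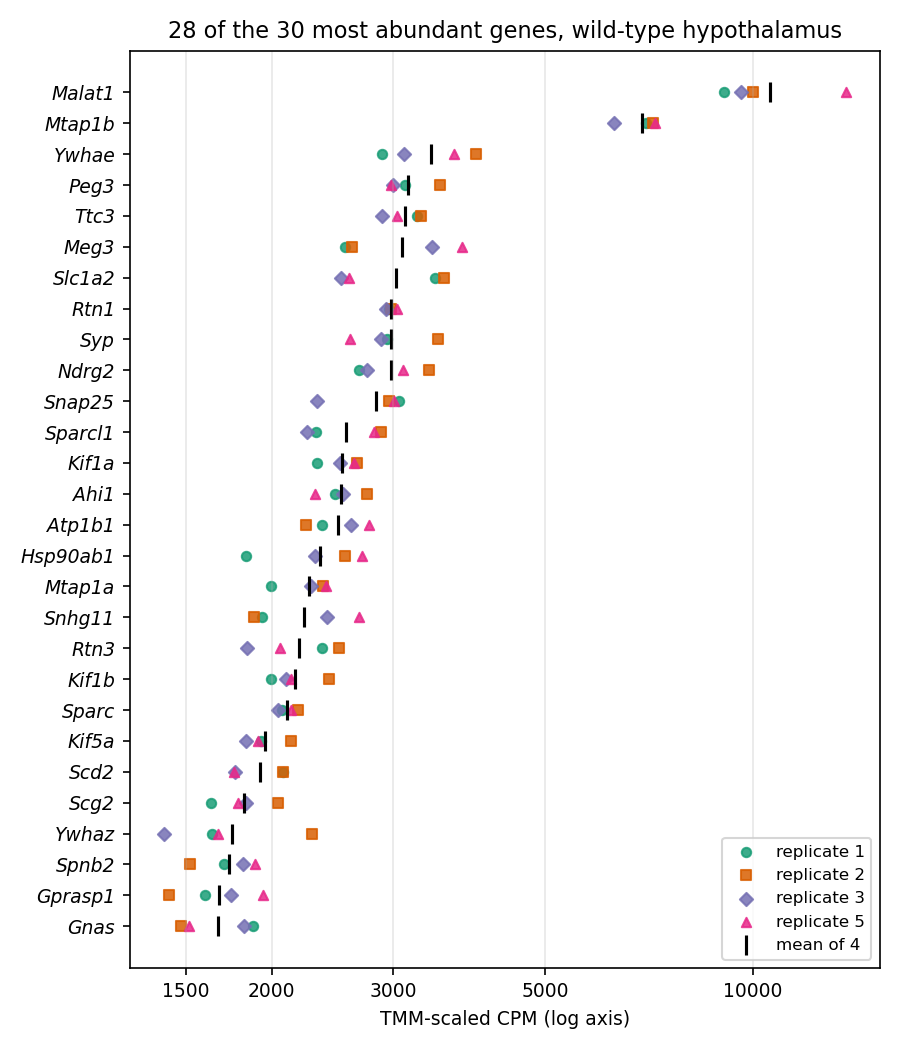
Level of 28 of the 30 most abundant genes (rows) in TMM-scaled CPM on a log axis, with 1 symbol per wild-type library and a bar at the mean of the 4. Malat1 and Mtap1b stand apart from the other 26 drawn, whose means lie between 1672 and 3412 CPM.

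Per kilobase of exon (GENCODE M21, all exons of a gene merged) the order changed. After division by length, Malat1 had a mean of 1517 CPM per kilobase, Ywhae 1329, the melanin-concentrating hormone precursor Pmch 1161, Ndrg2 877, Sparcl1 874 and Atp1b1 810. Pmch thus ranked 98th by CPM and 5th per kilobase. Snurf had the highest value, 2482 CPM per kilobase, but its 216-base gene model lies wholly within exons of Snrpn on the same strand, so that the counts of these 2 genes cannot be separated. The microRNA line Mir5114 had 1385 CPM per kilobase from a length of 61 bases.

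The mature sequence of this microRNA is printed because its line overlaps an exon of an abundant gene. It is taken from RefSeq (GRCm38.p6, chr19:44303171-44303192, plus strand) with the seed, bases 2 to 8, in capitals:
mmu-miR-5114: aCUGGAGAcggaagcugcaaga
The hairpin of 61 bases lies within exon 6 of Scd2 on the same strand, and the printed stretch is wholly in the coding part of that exon in transcript Scd2-201, just before the stop codon at 44303198 to 44303200. Scd2, a fatty acid desaturase of lipid and myelin synthesis, is itself one of the 30 most abundant genes, at 2079, 2080, 1772 and 1763 CPM. The microRNA line stood at 81.2, 128, 70.5 and 58.3 CPM. Fragment libraries of total RNA do not separate a mature microRNA from its host exon, and the value is not read here as a microRNA level.

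Neuropeptide precursors took 0.204 ± 0.0284% of the counts, with Pmch far above the rest. All 47 precursor genes looked for are in the table, 24 were detected in all 4 libraries, and 7 had no count in any of them (Kiss1, Npw, Rln3, Ucn, Cort, Calcb and Prlh). For a gene with no count, the pooled wild-type counts allow up to 0.549 CPM (3 counts over the 4 libraries, for counting error only). In bulk tissue, fewer cells of a type and less RNA per cell cannot be told apart.

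Pmch (chromosome 10, 88091072 to 88092375, plus strand), made in neurons of the lateral hypothalamus that promote feeding and sleep, stood at 907, 688, 871 and 1012 CPM. Replicate 2 was the lowest, and the gene ranked between 72nd and 156th in the single libraries. In the annotation 58.1% of its merged exon bases also lie in exons of Parpbp on the other strand, and the sources used here do not say whether strand was used in counting. Hcrt encodes orexin, the wake-promoting peptide of neighbouring lateral neurons, and stood at 30.5, 29.2, 61.9 and 64.5 CPM. Its 2 lower libraries, replicates 1 and 2, were apart from the 2 higher ones, replicates 3 and 5. Per kilobase Pmch had 918 to 1351 and Hcrt 38.9 to 86.1 CPM, ranges that do not meet.

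Sst, which encodes the growth hormone-inhibiting peptide somatostatin, was second per kilobase and varied between libraries. It stood at 70.3, 183, 127 and 175 CPM, or 97.6 to 254 CPM per kilobase, with replicate 1 the lowest. Ghrh, its growth hormone-releasing counterpart in the arcuate nucleus, stood at 11.6, 19.8, 18.7 and 17.8 CPM, again with replicate 1 the lowest. The opioid precursor Penk stood at 117, 144, 140 and 142 CPM, with 3 libraries nearly equal and replicate 1 below them.

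The precursors of the posterior pituitary hormones had few counts and differed between libraries. Oxt, the oxytocin precursor of birth, lactation and social behaviour, stood at 21.8, 23.5, 35.3 and 43.6 CPM. Avp, the vasopressin precursor of water balance, stood at 10.2, 16.9, 63.3 and 32.5 CPM (14, 18, 88 and 53 counts). Replicates 1 and 2 were below replicates 3 and 5 for both genes. Per kilobase, Oxt had a mean of 57.8 and Avp of 53.3 CPM, and their libraries overlapped.

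The releasing and feeding peptides followed. Trh, which drives the thyroid axis, stood at 52.2, 71.5, 86.3 and 58.9 CPM. Npy, an appetite-raising peptide of the arcuate nucleus and of many interneurons, stood at 31.9, 36.7, 53.2 and 44.2 CPM. Cartpt and Gal, both linked to feeding, stood at 50.0, 43.3, 56.8 and 60.8 CPM and at 22.5, 21.6, 56.8 and 34.4 CPM. Replicate 3 was the highest library for Trh, Npy and Gal, and replicate 5 for Cartpt. Pomc, the precursor of the appetite-lowering melanocortins, had a mean of 15.7 ± 5.41 CPM. Agrp, which opposes the melanocortins in the arcuate nucleus, had 0.725 to 6.59 CPM, and the stress hormone precursor Crh had 0.905 CPM on average. Both rest on few counts and were named after their values were seen.

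Below Pmch and Sst the order per kilobase was Penk (83.1 CPM per kilobase), Npy (73.3), Hcrt (62.1), Oxt (57.8), Avp (53.3), Trh (48.6), Gal (42.9), Cartpt (41.3), Nucb2 (31.7), Nts (31.0) and Cck (28.6). From Npy to Cartpt, neighbours in that order overlapped between libraries and cannot be ranked. With the longest transcript as the length, the first 3 places and those of Oxt, Avp and Trh were the same, while Cck moved from 13th to 9th place and Nts from 12th to 16th. Among the 13 precursors with a mean of 50 counts or more, the highest library exceeded the lowest by over 2-fold in Sst and Hcrt. Over all 5177 genes with that many counts the share was 2.28%.

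**Figure D2:**
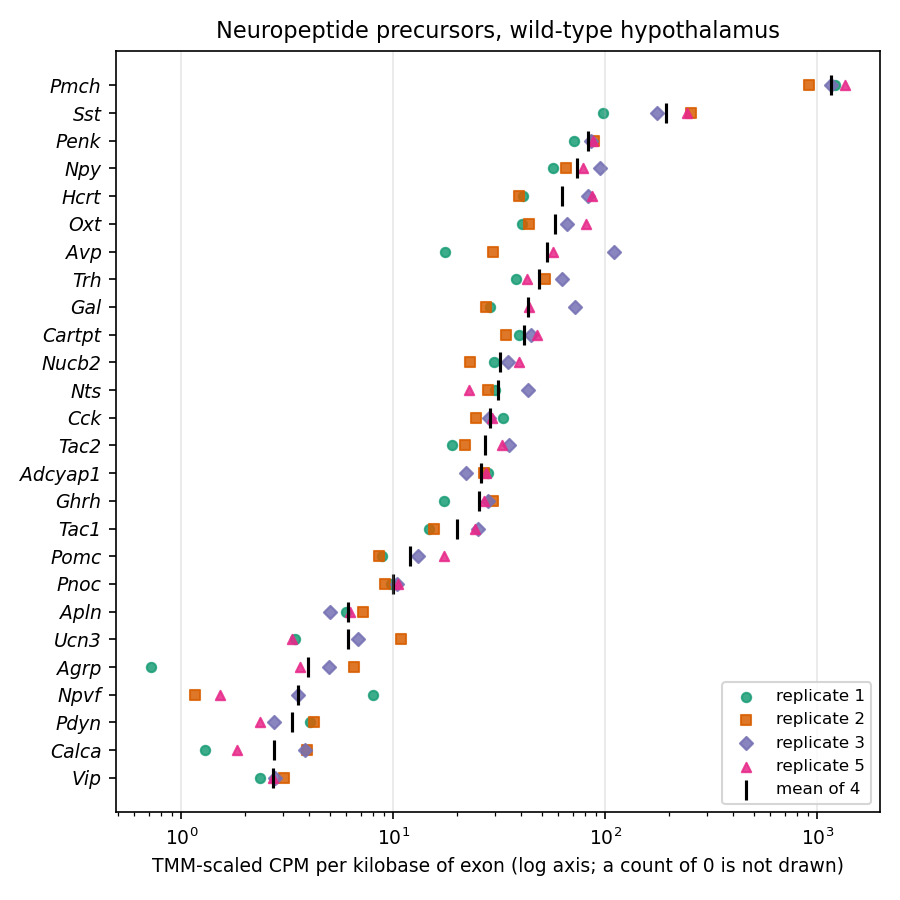
The 26 neuropeptide precursors with the highest level per kilobase of exon (rows), as TMM-scaled CPM per kilobase on a log axis with 1 symbol per wild-type library and a bar at the mean. Pmch stands near 1161 CPM per kilobase, Sst next at 193, and Avp has its libraries spread from 17.6 to 110.

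All 15 genes of the machinery that packs and cuts peptides were detected, and they held 0.717 ± 0.0353% of the counts. Scg2 was the highest of them. Cpe, the carboxypeptidase that trims peptide ends, stood at 1376, 1203, 1157 and 1267 CPM. Chgb, a granin, stood at 568, 497, 617 and 918 CPM, with replicate 5 above the other 3. Ptprn and Cadps, proteins of dense core vesicles, had means of 624 ± 96.3 and 517 ± 26.7 CPM, and the granin Scg3 had 366 ± 27.3 CPM.

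Peptide receptors were mostly low. Of 54 receptor genes, 39 were detected and 3 had no count in any library (Avpr1b, Galr2 and Nmur1), and the median over the list was 2.06 CPM per kilobase, beside 5.92 over all detected genes. Adcyap1r1, the receptor of the peptide PACAP, was the highest by CPM, at 392, 546, 525 and 510 CPM, with replicate 1 below the others. Its ligand gene Adcyap1 stood at 106, 101, 82.8 and 104 CPM. Ntsr2, a neurotensin receptor found mainly on astrocytes, stood at 136, 105, 132 and 128 CPM.

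Of the opioid receptors, Oprl1 (nociceptin) stood at 71.8, 72.4, 66.2 and 65.1 CPM, and Oprm1 (mu) at 42.8, 51.7, 43.2 and 35.6 CPM. Oprk1 (kappa) stood at 66.0, 28.2, 48.9 and 46.7 CPM and was the single one of the 6 receptors with enough counts that passed 2-fold between libraries. The neuropeptide Y receptors Npy2r and Npy1r had means of 48.7 ± 5.37 and 32.3 ± 3.84 CPM. Tacr1, Tacr3 and Trhr, receptors of tachykinins and of TRH, had means of 29.9, 26.1 and 26.2 CPM. Mchr1, the receptor of the Pmch product, stood at 10.2, 15.1, 19.4 and 19.6 CPM, or 7.34 CPM per kilobase beside 1161 for its ligand gene (named outside the ranking rule).

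Receptors of hormones and metabolic signals had a higher list median than those of peptides, 6.26 beside 2.06 CPM per kilobase. Of 27 genes 22 were detected, and the glucagon receptor Gcgr had no count. The cannabinoid receptor Cnr1 stood at 188, 173, 179 and 153 CPM. The glucocorticoid receptor Nr3c1 stood at 172, 170, 149 and 122 CPM, with replicate 5 the lowest for both. The insulin receptor Insr, the IGF1 receptor Igf1r, the prolactin receptor Prlr and the thyroid hormone receptor Thra had means of 148 ± 15.3, 140 ± 16.6, 129 ± 20.9 and 123 ± 17.2 CPM.

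Genes of inhibitory transmission led the transmitter list by CPM. Gad2, a GABA-making enzyme, stood at 1349, 1227, 1286 and 1324 CPM, and Gad1, the other one, at 366, 304, 343 and 281 CPM. Slc6a11, a GABA transporter mainly of astrocytes, stood at 928, 1096, 966 and 945 CPM. Slc17a6, the vesicular glutamate transporter of the hypothalamus and thalamus, stood at 427, 368, 301 and 352 CPM. Slc17a7, its cortical counterpart, was at 5.64 to 8.70 CPM, and per kilobase the means of these 2 transporters were 67.0 and 1.37 CPM (Slc17a7 was named outside the ranking rule).

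Monoamine genes were also in the list. Slc18a2, the vesicular monoamine transporter, stood at 104, 92.2, 66.2 and 99.5 CPM. Th, the rate-limiting enzyme of dopamine synthesis, stood at 34.8, 65.9, 69.8 and 43.6 CPM. The dopamine transporter Slc6a3, singled out after its values were seen, stood at 10.2, 35.8, 5.76 and 39.3 CPM, high in replicates 2 and 5 and low in 1 and 3. Th was high in replicates 2 and 3, so the 2 dopamine genes did not follow the same libraries. The serotonin transporter Slc6a4, the noradrenaline and adrenaline enzymes Dbh and Pnmt and the glycine transporter Slc6a5 had no count in any library.

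Transcription factors that pattern the hypothalamus were detected at low levels, 20 of 29 in all 4 libraries, with a list median of 1.60 CPM per kilobase. Six3, a factor of the anterior forebrain, stood at 28.3, 27.3, 40.3 and 36.8 CPM. Sim1, needed for the paraventricular nucleus, stood at 27.6, 33.9, 28.8 and 33.2 CPM, and Nkx2-1, a factor of the ventral hypothalamus, at 22.5, 17.9, 18.7 and 15.3 CPM. Dlx1, Isl1 and Tbx3 had means of 32.0, 18.9 and 18.1 CPM. Nkx2-4 and Hmx2 had no count, which allows up to 0.549 CPM over the pooled libraries.

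Markers of the cell classes of brain followed an order from neurons to vessels when levels were compared per kilobase. The median over the list was 109 CPM per kilobase for pan-neuronal genes, 40.3 for astrocytes, 24.8 for oligodendrocytes, 7.17 for their precursors, 4.17 for microglia and 2.58 for endothelium. These medians rest on which genes stand in each list and are no measure of cell numbers. Mbp, which encodes myelin basic protein, stood at 1022, 1276, 1194 and 1149 CPM, with replicate 2 the highest. Glul, the glutamine synthetase of astrocytes, stood at 829, 938, 1065 and 1113 CPM, and Aldoc, an astrocytic aldolase, at 680, 677, 686 and 668 CPM.

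Microglia were represented by the growth factor receptor Csf1r (76.2 ± 4.16 CPM), and their 18 genes summed to 421, 391, 377 and 430 CPM. Endothelial genes summed to 365, 355, 361 and 356 CPM, with the glucose transporter Slc2a1 (130 ± 6.33 CPM) first. Ependymal and tanycyte genes, which line the third ventricle, summed to 194, 217, 195 and 236 CPM. Their highest members were Vim (36.5 ± 5.43 CPM), a filament protein, and Gpr50 (34.3 ± 4.34 CPM), an orphan receptor of tanycytes.

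**Figure D3:**
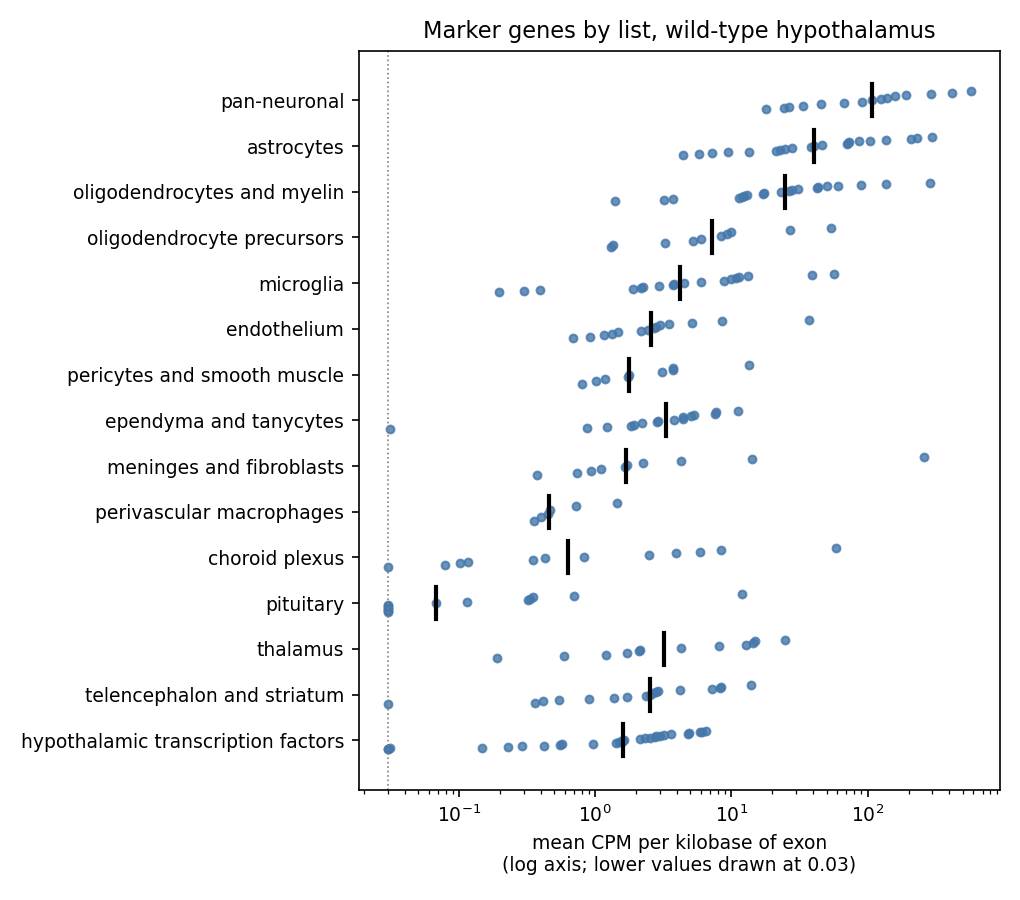
Mean level of each marker gene in the 4 wild-type libraries, as CPM per kilobase of exon on a log axis, by list (rows), with a bar at the list's median; values under 0.03 are drawn at 0.03. The neuronal list has its median at 109 CPM per kilobase and the pituitary list at 0.0677, where 6 of 13 genes had no count.

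Markers of neighbouring tissue ranged from no count to clear levels. Of 13 pituitary genes, 6 had no count in any library, among them Gh, Prl, Pou1f1, Gnrhr and Ghrhr, and Pomc, which the arcuate nucleus also makes, was the single one detected. Of 12 choroid plexus genes 5 were detected, and the list summed to 524, 568, 476 and 484 CPM, most of it from Enpp2 and Prlr (means of 339 and 129 CPM), which other brain cells also express. Its defining carrier protein Ttr stood at 0, 2.82, 7.92 and 7.98 CPM (0, 3, 11 and 13 counts), Slc4a5 had no count, and Aqp1, Folr1 and Kcne2 had 2 counts or fewer in any library. Of the telencephalon and striatum 13 of 17 genes were detected, with a median of 2.54 CPM per kilobase. Emx1 had no count, and the striatal phosphodiesterase Pde10a stood at 123, 101, 79.9 and 67.5 CPM. Of 12 thalamic genes 10 were detected, with a median of 3.19 CPM per kilobase beside 2.58 for endothelium. Prkcd stood at 26.8, 4.70, 8.63 and 6.14 CPM and Tcf7l2 at 89.2, 64.0, 66.9 and 65.1 CPM, so replicate 1 was the highest for Pde10a, Prkcd and Tcf7l2.

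Of 10 genes listed for the meninges, 7 were highest in replicate 5. Ptgds, the prostaglandin D synthase of meninges and oligodendrocytes, was at 230, 231, 317 and 942 CPM. The growth factor Igf2 was at 48.6, 76.2, 46.8 and 150 CPM, and Aldh1a2, a retinoic acid-making enzyme of the meninges, at 4.35, 6.59, 6.48 and 20.9 CPM. All 3 genes were highest in replicate 5. The list summed to 321, 360, 396 and 1175 CPM, and without Ptgds to 91.4, 128.9, 79.9 and 233 CPM. Of the remaining members the collagens Col1a2 and Col1a1 stood at 9.43, 8.47, 5.76 and 12.9 CPM and at 2.18, 8.47, 7.20 and 6.75 CPM. In the annotation 62.8% of the exon bases of Igf2 also lie in another gene model, Gm49394, on the same strand.

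Imprinted genes took 1.57 ± 0.0578% of the counts, and 23 of 24 were detected (all but H19). Beside Peg3, Meg3 and Gnas, the highest were Impact, a regulator of translation, with 1319, 1212, 1214 and 1260 CPM, Nap1l5 with a mean of 895 ± 79.9 CPM, and Peg10, a gene derived from a retrotransposon, with 719 ± 101 CPM. Of the 20 with enough counts, Igf2 alone passed 2-fold between libraries. Among noncoding RNAs Rn45s, the precursor of ribosomal RNA, stood at 1371, 1961, 1764 and 946 CPM, with replicate 5 the lowest. Malat1, Meg3 and Snhg11 were highest in replicate 5, where Snhg11 stood at 2683 CPM beside 1886 to 2409 CPM in the other 3.

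The 4 libraries agreed closely for most genes. The common biological coefficient of variation (the spread beyond counting error, edgeR) was 0.122 with a leave-one-out SE of 0.00691, beside 0.109 for the heterozygous and 0.187 for the homozygous libraries. The median coefficient of variation over the 5177 genes with a mean of 50 counts or more was 13.1%, and 9.26% after the variance expected from counting was taken off. For 22.2% of these genes the spread was no larger than counting gives. Rtn1, an endoplasmic reticulum-shaping protein of neurons, was such a gene among the 30 most abundant, at 2963, 2986, 2937 and 3043 CPM.

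In 118 of the 5177 genes (2.28%) the highest library exceeded the lowest by over 2-fold. Replicate 5 was the highest library for 51 of them, replicate 2 for 32, replicate 1 for 18 and replicate 3 for 17. The lowest library was replicate 1 for 43, replicate 2 for 35, replicate 3 for 26 and replicate 5 for 14. Over all 5177 genes, replicate 5 had the smallest root mean square deviation from the mean of the libraries (0.187 in log2 units). The others had 0.205 (replicate 1), 0.205 (replicate 2) and 0.192 (replicate 3). The count over 2-fold was 50 of 4969 without replicate 5 and 73 of 5161 without replicate 1. It was 77 of 5423 without replicate 2 and 82 of 5152 without replicate 3. A range over fewer libraries cannot be larger for the same values, so this count tends to fall whichever library is left out. The largest spread beyond counting was that of Ptgds and Igf2. Next was Ndufa2, a subunit of respiratory complex I, at 26.1, 16.0, 38.1 and 66.9 CPM. Aldh1a1, which makes retinoic acid, stood at 48.6, 48.0, 31.7 and 111 CPM. Both genes were again highest in replicate 5.

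The rest of the 12 most variable genes were Pfdn5, Abcf1, Prpf38b, Nefm, Gtf2f1, Dact3, Hcrt and Ndfip1. Nefm, the medium neurofilament, stood at 225, 201, 194 and 430 CPM, and the splicing gene Prpf38b at 86.3, 86.6, 94.3 and 192 CPM, both with 3 close libraries and replicate 5 above. Ndfip1, an adaptor of ubiquitin ligases, stood at 197, 151, 91.4 and 87.8 CPM and Dact3 at 26.1, 65.9, 36.0 and 32.5 CPM, so these were high in other libraries. At the other end of the spread, the antioxidant enzyme Gpx1 stood at 38.4, 37.6, 38.1 and 38.7 CPM and Tubgcp5 at 40.6, 40.5, 41.0 and 40.5 CPM. The other genes of smallest spread, Sec22c, Ppm1d, Dennd1b and Auh, had means of 36.6 to 37.3 CPM. All 6 had means of 50 to 55.5 counts, at the minimum for this ranking, where counting error is widest.

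**Figure D4:**
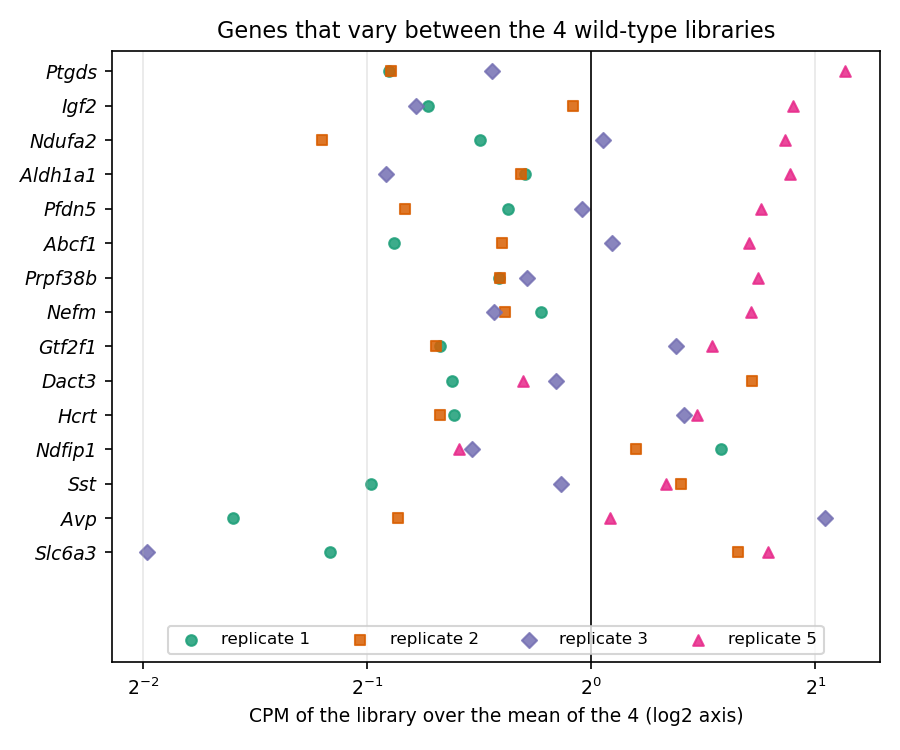
Level of each gene in a wild-type library divided by its mean over the 4 (log2 axis), for the 12 genes of largest spread beyond counting and, below them, Sst, Avp and Slc6a3, added after their values were seen. Replicate 5 is the highest library for 10 of the 12 genes of largest spread.

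Base composition moved with the library. Over 5125 of the 5177 genes with a known transcript, the deviation of a library from the mean of the 4 had a Spearman correlation with GC content of −0.478 in replicate 1, 0.0739 in replicate 2, 0.395 in replicate 3 and 0.0335 in replicate 5, across genes. In the 1281 genes with the highest GC content the median deviation was −0.11 in replicate 1 and 0.08 in replicate 3 on the log2 scale. The part of base composition in the single values of replicates 1 and 3 was not tested.

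The most abundant wild-type genes were also set beside the mutants. In homozygous against wild-type libraries 2723 of 10737 genes tested (25.4%) passed an adjusted p of 0.05 in edgeR's quasi-likelihood test, and 36.9% of the genes with a mean of 50 counts or more in wild-type did. Of the 30 most abundant genes 17 passed, 15 of them higher and 2 lower, and leaving out single libraries gave 15 to 17. Their median log2 fold change was 0.28, beside −0.03 over all genes tested. Of the 30, 24 were also among the 30 most abundant homozygous genes and 27 among the 30 most abundant heterozygous genes. The homozygous libraries fell into 2 pairs. The mean squared difference per gene was 3.59 times that of counting between replicates 1 and 2, and 2.73 times between 4 and 5. It was 10.6 to 12.2 times between libraries of different pairs, beside 3.10 to 4.94 times between wild-type libraries, a ratio that also grows with depth.

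Malat1 stood at 24016, 21521, 16190 and 17061 CPM in the homozygous libraries, all above the wild-type range, with a log2 fold change of 0.89 ± 0.15 (SE, adjusted p = 0.000251, edgeR). Mtap1b stood at 11214, 11404, 10812 and 11694 CPM there, also above every wild-type library (0.70 ± 0.10, adjusted p = 2.85e-05, edgeR). Scg2 stood at 3428, 2756, 2460 and 2815 CPM (0.65 ± 0.12, adjusted p = 0.000481, edgeR). The groups did not overlap for any of these 3 genes.

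Scd2 was lower in homozygous libraries. It stood at 1287, 1300, 1342 and 1384 CPM, below every wild-type library (−0.54 ± 0.10, adjusted p = 0.000426, edgeR). Syp, at −0.45 ± 0.17, did not pass (adjusted p = 0.0575, edgeR). Kif1a passed (0.27 ± 0.10, adjusted p = 0.0451, edgeR), and in 1 of the 8 fits that left out a library it passed again, with adjusted p from 0.0220 to 0.129.

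**Figure D5:**
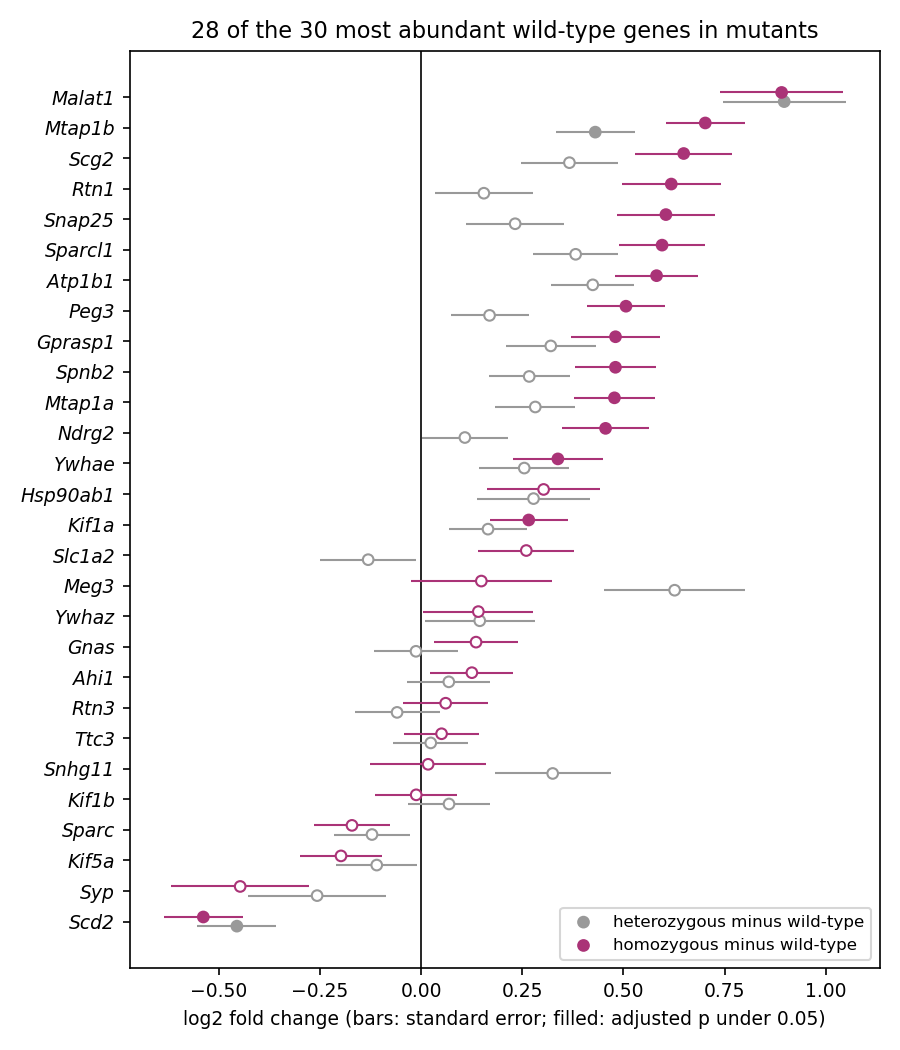
Log2 fold change of 28 of the 30 most abundant wild-type genes in heterozygous (grey) and homozygous (purple) against wild-type libraries, with standard errors; filled points passed an adjusted p of 0.05 in edgeR's test over all genes. Both comparisons use the same 4 wild-type libraries, and 15 points are filled for homozygous and 3 for heterozygous libraries.

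In heterozygous against wild-type libraries 64 of 10737 genes (0.596%) passed, 0.512% of all as higher and 0.0838% as lower, and 1.06% of the genes with a mean of 50 counts or more in wild-type. Of the 30 most abundant genes Malat1 and Mtap1b were higher and Scd2 was lower. Malat1 stood at 20049, 14258, 25302 and 19426 CPM (0.90 ± 0.15, adjusted p = 0.0071, edgeR), above every wild-type library. When single libraries were left out, between 0 and 6 of the 30 genes passed. The 64 calls became 3 without wild-type replicate 2, without wild-type replicate 3, or without heterozygous replicate 3 or 4. They became 16 without wild-type replicate 1, 24 without heterozygous replicate 1, 108 without wild-type replicate 5 and 218 without heterozygous replicate 2.

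Of the peptide genes, 23 of 47 were tested, and against a background of 25.4% passing in homozygous libraries 4 were higher (Sst, Penk, Nucb2 and Cck) and 3 lower (Trh, Pomc and Pdyn). Sst stood at 349, 316, 269 and 196 CPM there, above every wild-type library (1.03 ± 0.21, adjusted p = 0.00114, edgeR). Trh stood at 28.6, 31.6, 36.7 and 30.2 CPM, below every wild-type library (−1.08 ± 0.18, adjusted p = 0.00021, edgeR). Pomc passed in 3 of the 8 fits that left out a library and Penk in 6 of 8. Pmch did not pass in homozygous (0.22 ± 0.15, adjusted p = 0.297) or heterozygous libraries (0.25 ± 0.15, adjusted p = 0.479, edgeR).

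Over all genes tested 13.7% were higher and 11.6% lower in homozygous libraries. In further lists 4 of 15 packaging genes were higher and 5 lower in homozygous libraries, and 5 of 31 peptide receptors higher and 1 lower. Of 22 hormone receptors 2 were higher and 3 lower, and of 15 transmitter genes 3 higher and 4 lower. Of 15 pan-neuronal genes 7 were higher and 3 lower, and of 21 astrocyte genes 2 were higher and 6 lower. The lists are short, and a difference of a few genes from the 25.4% of all genes is not read as a result about a list. Of the packaging genes 14 had a mean of 50 counts or more in wild-type, and so had all 15 pan-neuronal genes. Of all genes with a mean of 50 counts or more in wild-type, 36.9% passed. Whether any list differs from other genes of like level was not tested. Chgb stood at 1366, 1333, 1430 and 1550 CPM (1.12 ± 0.15, adjusted p = 2.43e-05, edgeR), above all wild-type libraries including replicate 5. Nefm stood at 914, 957, 716 and 707 CPM (1.64 ± 0.22, adjusted p = 1.72e-05, edgeR), also above wild-type replicate 5. Slc6a11 stood at 519, 721, 325 and 282 CPM, below every wild-type library (−1.08 ± 0.19, adjusted p = 0.000359, edgeR). Of 14 patterning factors tested, Six3 was higher (0.64, adjusted p = 0.0165, edgeR) and none lower.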

How the data were processed

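The authors deposited raw counts by gene symbol, and every value was checked to be a whole number. Per the labels' protocols the libraries were read as pairs of 75 and 35 bases. The mouse build is mm10 per the submitters' processing notes; the sources used here name no aligner, counter, annotation or strand setting. Of the table's numbered lines 58 were not used here. None of 15 mitochondrially encoded genes looked for is in the table under its usual symbol, so these genes were not analysed. The homozygous column numbered 5 matches no label by number and was placed by its genotype.

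Library totals were scaled with TMM factors (edgeR 4.0.16, R 4.3.3; 1.03 to 1.08 in wild-type). Genes were tested over all 12 libraries on genotype with edgeR's quasi-likelihood F test after its default filter on low counts, with Benjamini-Hochberg adjustment over all genes tested, and with DESeq2 1.42.0 as an alternative. An SE is the log2 change over the root of F. Symbols were matched to GENCODE M21, 20717 as printed and 1867 through an older symbol, and 1436 stayed unmatched. Ranges over 2-fold were counted at a mean of 50 counts or more. Genes with identical counts in every wild-type library (Lass1 and Gdf1, for example) may share reads. The calls and the spread measure were tested on simulated data. The samples, gene lists and tests were chosen with earlier results of these data known. Named were the 30 genes highest in CPM, the 15 highest per kilobase, the 14 highest peptides, 10 receptors and 6 genes of each other list, and the 12 largest and 6 smallest spreads. Replicate numbers were not used as pairs: 1 of 9 same-number pairs correlated above 0.1, and 9 of 39 pairs with other numbers did. The highest correlation, 0.337, was between heterozygous and homozygous replicate 2. Whether a number marks a shared batch was not tested. Results for some genes are not reported here, and those genes remain in the counts, sums and medians of their lists.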

Additional observations from a re-analysis of the deposited data

Results flagged for a closer look

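Within the 4 wild-type libraries, 21 of 225 gene levels and list sums checked (9.33%) had 1 library far from the other 3. Chance gives about 5% for values picked without regard to spread. The values checked include the 12 genes picked for the largest spread in these libraries, and list sums beside their own members. The shares therefore cannot be compared, and no conclusion is drawn from them. In replicate 5, Ptgds stood at 942 CPM against 230 to 317 in the others, Aldh1a2 at 20.9 against 4.35 to 6.59, and the summed meningeal genes at 1175 against 321 to 396. Also high there were Nefm at 430 CPM (194 to 225 in the others), Prpf38b at 192 (86.3 to 94.3) and the pericyte gene Vtn at 39.3 (22.3 to 24.7), while Tnr was low at 78.0 (114 to 119). In replicate 2, the summed oligodendrocyte genes stood at 5095 CPM against 4234 to 4349. Snurf stood at 601 CPM there (506 to 522 in the others), the noncoding RNA Peg13 at 512 (383 to 389), the dopamine receptor Drd2 at 33.9 (15.8 to 17.8) and the synaptic gene Nrgn at 26.3 (17.2 to 18.7). In replicate 3, Snap25 was low at 2326 CPM (2961 to 3065), as were Pcdh15 at 64.8 (80.9 to 82.7) and Abcc9 at 6.48 (16.9 to 18.4). In replicate 1, Penk was low at 117 CPM (140 to 144) and Tcf7l2 high at 89.2 (64.0 to 66.9). The last 4 rest on 1 or 2 counts in 1 library and 0 in the others: Slc4a1 and Lhb at 1.88 CPM each in replicate 2, Cga at 1.23 in replicate 5 and Fshb at 0.725 in replicate 1.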

How the results depend on the processing

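Shares and the common coefficient of variation moved little, and counts near a threshold moved more. With 1 library left out the 100 most abundant genes took 17.5% to 17.8% of counts and the common coefficient of variation was 0.115 to 0.125. The detected genes then numbered 12398 to 12745, a count that cannot fall when fewer libraries have to pass. With 5 counts or more required in all 4 libraries, the detected genes fell from 12292 to 10622. Genes passing a 2-fold range numbered 679 of 8164 at a mean of 20 counts and 9 of 1527 at a mean of 200 counts. With 1 library left out they numbered 50 to 82, where fewer libraries can only give a smaller or equal range. In homozygous libraries the 2723 calls became 1856 to 3076 with 1 library left out and 2612 with DESeq2. In heterozygous libraries the 64 calls became 280 without the filter on low counts, 382 with only those 2 genotypes fitted, 247 with DESeq2 and 3 to 218 with 1 library left out. The causes were not tested. With a replicate block there were 93 heterozygous and 2184 homozygous calls, and whether the numbers mark shared batches was not tested. Gene levels moved by less than 1 SD in 203 of 204 genes with DESeq2 size factors, but levels per kilobase did so in 92 of 201 genes when the longest transcript gave the length. Totals of 1030045 to 1538688 counts limit what can be said of genes near the 1.84 to 2.82 CPM that 3 counts make.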

Other observations

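Ribosomal protein genes, looked up after the values were seen, were low for a tissue that makes protein in every cell. Their 77 symbols had a median of 1.50 CPM, or 0.691 CPM per kilobase, beside 27.0 CPM and 5.92 CPM per kilobase over all detected genes, and 35 of the 77 were detected. Rpl4 stood far above that median, at a mean of 329 CPM. Many of these genes have near-identical pseudogene copies between which reads cannot be placed, and how the counting treated such reads is not given in the sources used here. Whether such copies lowered the counts was not tested.

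Genes of recent neuronal activity gave a further list. Egr1 stood at 169, 153, 219 and 227 CPM, Fos at 16.7, 18.8, 18.0 and 27.0 CPM and Arc at 13.1, 16.9, 16.6 and 7.98 CPM. Of 12 genes 10 were detected, and Dusp1, at 39.2, 52.7, 25.2 and 36.2 CPM, was the 1 of 2 with enough counts that passed 2-fold between libraries. In homozygous libraries, where 13.7% of all genes tested were higher and 11.6% lower, none of 9 tested was higher and Nr4a1, Fos and Btg2 were lower (log2 fold changes of −1.30, −1.08 and −1.69, adjusted p of 0.00201, 0.0117 and 0.00495 in edgeR).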
